A study of Homo sapiens with 6 samples.

Results

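The genes for the cyclin-dependent kinase (CDK) inhibitors were examined together with CDKN3, SKP2 and CKS1B in MDA-MB-231 cells sorted by how much of a membrane dye they had kept. The 10 genes (CDKN1A, CDKN1B, CDKN1C, CDKN2A, CDKN2B, CDKN2C, CDKN2D, CDKN3, SKP2 and CKS1B) were taken by name from the 58735 genes of the deposited tables. Of these 10 genes, 8 passed the filter on low counts and were tested, and CDKN2A and CDKN2B did not pass it. MDA-MB-231 is an established human triple-negative breast cancer line, labelled wild type in both groups. Cells were stained with PKH26, a fluorescent dye that is diluted at each division, and grown for 12 days in complete medium before sorting. Slow-cycling cells (SCC) were the brightest 1% of that culture. Rapid-cycling cells (RCC) were sorted at moderate brightness per the protocol, whereas the sample characteristics call them low in dye. Each group had 3 libraries described as biological replicates of this one line, so p-values speak of the spread among these libraries.

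CDKs drive the cell cycle when bound to cyclins, and their inhibitors hold them back. The CIP/KIP proteins p21 (CDKN1A), p27 (CDKN1B) and p57 (CDKN1C) bind cyclin-CDK complexes of several kinds, whereas the INK4 proteins p16 (CDKN2A), p15 (CDKN2B), p18 (CDKN2C) and p19 (CDKN2D) bind CDK4 and CDK6 and keep cyclin D away from them. SKP2 is the substrate-binding subunit of an SCF ubiquitin ligase, and with its cofactor CKS1B it marks phosphorylated p27, and also p21 and p57, for destruction. CDKN3 differs from the others in being a phosphatase that removes an activating phosphate from CDKs. Much of the control of p27 is on the protein, and RNA-seq reads mRNA levels alone.

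The SCC libraries held 19498054 to 27831824 counts, and the RCC libraries held 17655855 to 22746267. SCC replicate 1 stood apart from its group: when tested genes were ranked by GC content and cut into 10 bins, those of the lowest bin had a median of -0.24 against the mean of the 6 libraries (log2 scale) and those of the highest bin 0.40, whereas the other 5 libraries lay between -0.16 and 0.10. Mitochondrial genes took 4.56% ± 0.17 of counts in SCC and 3.89% ± 0.11 in RCC (SD, n = 3, exact permutation p = 0.1, two-sided, the smallest that 3 against 3 libraries allow). The line's markers were present, with VIM at 752 to 835 CPM (counts scaled by library total) and CD44 at 336 to 367 CPM, and the estrogen receptor gene ESR1 had 5 to 16 counts per library. The summed level of 8 leukocyte markers was 0.613 to 3.60 CPM in SCC and 0.951 to 1.05 CPM in RCC, and that of 8 fibroblast and endothelial markers was 16.4 to 20.3 CPM and 12.5 to 15.7 CPM. PTPRC, the 1 leukocyte marker with enough counts to be tested, had a log2 fold change of SCC over RCC of 1.84 (edgeR adjusted p = 0.206). Without SCC replicate 1 it was 0.79. The part of these differences in the results was not tested. Immediate early genes, which cells switch on within minutes of a stimulus, also moved with the groups. Of 16, 14 were called higher in SCC (edgeR adjusted p under 0.05), against 1.69% of all tested genes. By an unadjusted p under 0.05 in edgeR all 16 were higher. Their summed level was 1542 to 2021 CPM in SCC against 654 to 699 CPM in RCC.

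Among the 8 tested genes CDKN1A and CDKN2D were higher in SCC and SKP2 was lower. Across all 15881 tested genes, 1.69% were called higher and 0.378% lower (268 and 60 genes), at an adjusted p under 0.05 in edgeR's quasi-likelihood test. With an offset for GC content these became 523 and 245 genes, and without SCC replicate 1 they became 642 and 343. An unadjusted p under 0.05 in edgeR, used below to count genes in lists, was reached by 3127 of the 15881 genes. CDKN1B, CDKN1C, CDKN2C, CDKN3 and CKS1B did not pass the threshold on adjusted p. Libraries of the groups did not overlap for 4 of the 8 (CDKN1A, CDKN2D, CDKN3 and SKP2), against 27.8% of all tested genes. RNA was measured in bulk, so a change in the share of cells that express a gene and a change in RNA per cell cannot be told apart for any of them.

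**Figure D1:**
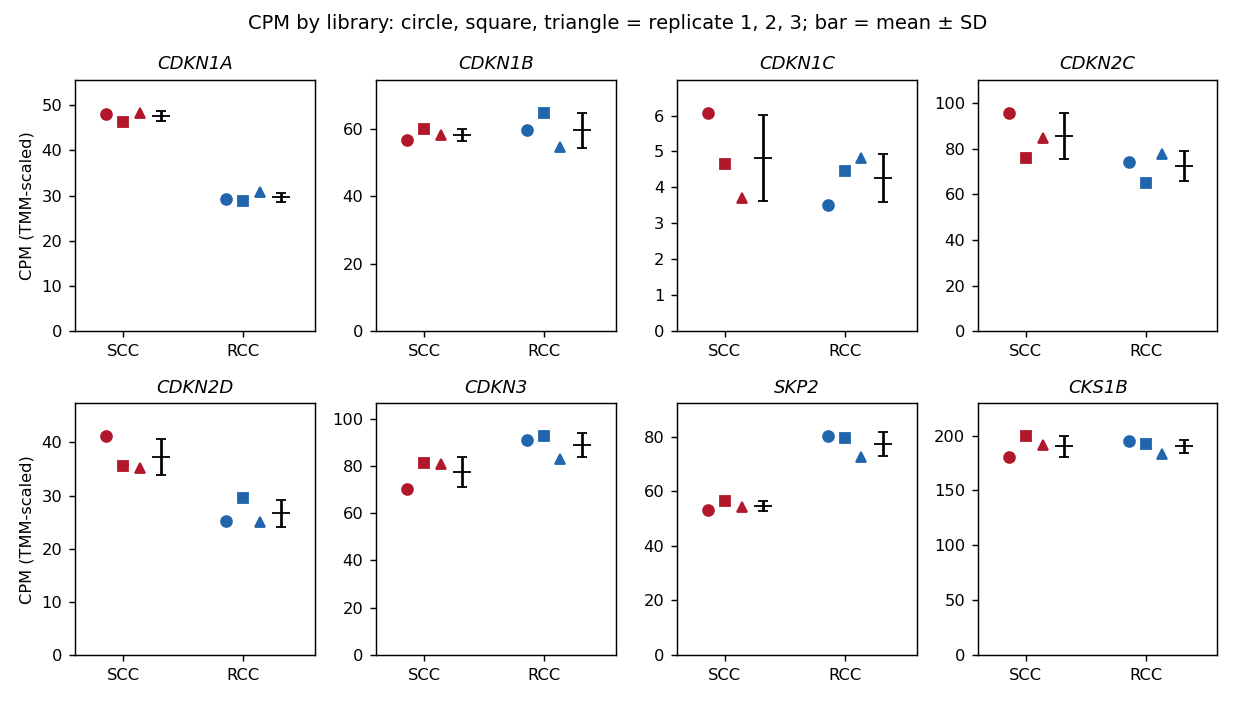
Levels of the 8 tested genes in CPM (vertical axis) in the 3 SCC and 3 RCC libraries, with 1 symbol per library and a bar for the group mean ± SD. The SCC libraries sit above the RCC libraries for CDKN1A and CDKN2D and below them for CDKN3 and SKP2, and the groups overlap for the other genes.

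CDKN1A encodes p21, an inhibitor that cells make in response to many kinds of stress. The gene (ENSG00000124762) lies at chr6:36676460-36687339 on the plus strand of GRCh38. Its level was 48.1, 46.3 and 48.4 CPM in SCC replicates 1 to 3 and 29.2, 28.8 and 30.8 CPM in RCC replicates 1 to 3. Every SCC library lay above every RCC library, and the libraries within a group lay close together. The means were 47.6 ± 1.13 CPM and 29.6 ± 1.04 CPM (SD, n = 3), a log2 fold change of 0.69 (SE 0.077, edgeR adjusted p = 7.5e-04). That is 1.61 times the RCC level, with a 95% interval of 1.43 to 1.81. CDKN1A was called higher under all 17 alternative settings, between 0.55 (with an offset for GC content) and 0.71 on the log2 scale. GENCODE 29 places a long noncoding gene, DINOL, on the opposite strand, where it shares 146 exonic bases with CDKN1A (4.79% of its exonic length). DINOL had 0 counts in 5 libraries and 2 in RCC replicate 1.

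The promoter windows of the 3 genes that passed the test are printed here from RefSeq (GRCh38.p14), from 250 bases before to 50 bases after the annotated start, in the direction of the gene, so that those that rose can be set beside the gene that fell. Capitals mark GGGCGG or its complement, the GC box that SP1-type factors can bind. The windows lie at chr6:36678464-36678763 (plus strand), chr19:10568930-10569229 (minus strand) and chr5:36151861-36152160 (plus strand). The RefSeq start used for CDKN1A lies inside the gene span given above, downstream of the first base of that span.
CDKN1A: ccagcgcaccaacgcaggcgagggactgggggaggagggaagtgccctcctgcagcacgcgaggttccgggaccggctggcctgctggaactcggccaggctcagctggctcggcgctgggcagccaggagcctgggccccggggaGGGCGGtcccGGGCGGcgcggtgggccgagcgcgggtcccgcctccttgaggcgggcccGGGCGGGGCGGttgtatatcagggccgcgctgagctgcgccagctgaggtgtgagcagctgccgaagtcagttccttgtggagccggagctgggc
CDKN2D: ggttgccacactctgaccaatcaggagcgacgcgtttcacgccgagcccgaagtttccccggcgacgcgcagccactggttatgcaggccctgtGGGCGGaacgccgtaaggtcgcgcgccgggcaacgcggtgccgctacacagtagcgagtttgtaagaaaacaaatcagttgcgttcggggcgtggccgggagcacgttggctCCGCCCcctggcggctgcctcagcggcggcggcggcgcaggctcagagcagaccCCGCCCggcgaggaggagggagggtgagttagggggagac
SKP2: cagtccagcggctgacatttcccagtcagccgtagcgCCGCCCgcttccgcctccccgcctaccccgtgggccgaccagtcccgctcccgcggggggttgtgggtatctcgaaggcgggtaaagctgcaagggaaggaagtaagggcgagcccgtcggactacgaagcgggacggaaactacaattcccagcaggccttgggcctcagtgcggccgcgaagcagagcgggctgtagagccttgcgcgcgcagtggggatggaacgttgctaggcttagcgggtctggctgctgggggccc

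CDKN1A held 4 matches to GGGCGG, all on its own strand, that began 104, 94, 45 and 40 bases before the start, the last pair overlapping by 1 base. CDKN2D held 3 and SKP2 held 1, the latter 213 bases before the start on the opposite strand. The motif is common: 45.0% of 35116 RefSeq promoter windows of this length held it on either strand. The letters TGANTCA, bound by AP-1, were in 7.7% of the windows, and TTTNGCGC, bound by E2F factors, in 1.8%; neither was in a window of the 9 genes that the table holds (all but CDKN1C). Of the other letters searched on both strands, CCAAT (34.6% of all windows) was in CDKN1B, CDKN2C, CDKN2D, CDKN3 and CKS1B, TTTGAA, the CHR element of mitotic genes (15.2%), in CDKN3 and CKS1B, and CACGTG (7.3%) in CDKN2C. A match describes these letters alone, and factor binding was not measured.

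CDKN1B and CDKN1C, the other CIP/KIP genes, did not pass the test. CDKN1B (chr12:12715058-12722371, plus strand) was at 56.6, 60.0 and 58.1 CPM in SCC and 59.6, 64.8 and 54.5 CPM in RCC. The RCC libraries spanned the whole SCC range, and the log2 fold change was -0.04 (edgeR adjusted p = 0.827). The 95% interval of the fold ran from 0.861 to 1.10, so it does not contain the fold estimated for CDKN1A. CDKN1C, an imprinted gene (chr11:2883213-2885773, minus strand), was at 6.08, 4.65 and 3.70 CPM in SCC and 3.52, 4.44 and 4.81 CPM in RCC. These groups overlapped, with the highest value in SCC replicate 1. Its log2 fold change was 0.19 with a 95% interval of -0.27 to 0.66 (edgeR adjusted p = 0.628), and without SCC replicate 1 it was -0.023. Among 7 tested imprinted or neighbouring genes at the CDKN1C locus, the antisense transcript KCNQ1OT1 was the one called. By unadjusted p in edgeR, 4 of the 7 were higher and KCNQ1OT1 was lower, 5 did not overlap between the groups, and the median log2 fold change was 0.24. Over all 15881 tested genes, 3127 had an unadjusted p under 0.05 in edgeR and 27.8% did not overlap, at a median of 0.00. KCNQ1OT1 was 12.5 ± 0.62 CPM in SCC and 19.1 ± 2.52 CPM in RCC (SD, n = 3), a log2 fold change of -0.61 (edgeR adjusted p = 0.028). That call was lost without SCC replicate 3, RCC replicate 1 or RCC replicate 3, at edgeR adjusted p of 0.095, 0.166 and 0.145, and in limma on unfiltered FPKM (-0.09, adjusted p = 0.653).

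MicroRNAs are a known layer of control over these mRNAs, and the sequences of those whose host genes were listed show which transcripts they could pair with. The mature forms below are from RefSeq with the seed, bases 2 to 8, in capitals. miR-221 and miR-222 share the seed GCUACAU, and miR-17 carries AAAGUGC, as do miR-20a, miR-106b and miR-93.
hsa-miR-221-3p: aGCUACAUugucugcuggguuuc
hsa-miR-222-3p: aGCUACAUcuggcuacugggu
hsa-miR-17-5p: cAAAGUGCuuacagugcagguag
hsa-miR-22-3p: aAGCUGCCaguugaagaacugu
The complement of the miR-221 and miR-222 seed was found at 2 positions of the CDKN1B 3′ UTR and at 1 each of CDKN1C and CDKN2B, and that of miR-17 at 2 positions of CDKN1A and of miR-22 at 1. The sites below are from the GENCODE 29 transcripts, with the match in capitals.
CDKN1B: tctaaaagcgttggATGTAGCat
CDKN1B: agtttttaccttttATGTAGCac
CDKN1C: ggctgggaccgttcATGTAGCag
CDKN2B: actacagctcttaaATGTAGCaa
CDKN1A: gaagtaaacagatgGCACTTTga
CDKN1A: ctccccagttcattGCACTTTga
CDKN1A: ctagttctacctcaGGCAGCTca
Neither SKP2 nor CDKN2D held a site for any of these seeds.

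MIR222HG, the host transcript of miR-221 and miR-222, was at 3.82, 5.16 and 4.55 CPM in SCC and 10.5, 10.4 and 9.17 CPM in RCC. Each SCC library lay below each RCC library, and the log2 fold change was -1.16 (SE 0.15, edgeR adjusted p = 0.0019). MIR222HG was called in 16 of 17 alternative settings and lost in limma on unfiltered FPKM (-0.82, adjusted p = 0.076). CDKN1B, whose 3′ UTR holds both sites, did not pass the test as given above. MIR22HG, the host of miR-22, was higher in SCC at 21.6 ± 0.38 CPM against 7.91 ± 0.57 CPM (SD, n = 3; log2 fold change 1.45, edgeR adjusted p = 3.1e-05). CDKN1A, which holds the miR-22 site, was higher in the same libraries. MIR17HG had a log2 fold change of -1.09 without passing the threshold (edgeR adjusted p = 0.059), and MCM7, which hosts miR-106b and miR-93, had one of 0.10 (edgeR adjusted p = 0.445). Mature microRNAs were not measured.

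Of the INK4 genes, CDKN2D was called higher in SCC. CDKN2D (ENSG00000129355) lies at chr19:10566462-10569059 on the minus strand. It was at 41.2, 35.5 and 35.1 CPM in SCC and 25.3, 29.5 and 25.1 CPM in RCC. The lowest SCC library lay above the highest RCC library, with SCC replicate 1 the highest of all. The means were 37.3 ± 3.39 CPM and 26.6 ± 2.47 CPM (SD, n = 3), a log2 fold change of 0.49 with a 95% interval of 0.26 to 0.71 (SE 0.10, edgeR adjusted p = 0.035). CDKN2D is GC-rich (61.3%), and with the offset for GC content the log2 fold change fell to 0.29 with an edgeR adjusted p of 0.067. Its call held in 9 of 17 alternative settings; it was lost without SCC replicate 3 or any RCC library (edgeR adjusted p 0.067 to 0.198) and held without SCC replicate 1 (0.41, edgeR adjusted p = 0.004).

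CDKN2C, the other INK4 gene with ample counts (chr1:50960745-50974633, plus strand), was at 95.9, 75.9 and 84.6 CPM in SCC and 74.3, 64.9 and 77.7 CPM in RCC. The groups overlapped between SCC replicate 2 and RCC replicate 3. The log2 fold change was 0.24 with a 95% interval of 0.02 to 0.46 (edgeR adjusted p = 0.217), and 0.10 with the offset for GC content.

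CDKN2A (ENSG00000147889, chr9:21967753-21995301, minus strand) had 10, 2 and 4 counts in SCC and 0, 2 and 0 in RCC. Summed over libraries this was 16 of 68496644 counts against 2 of 61364184. Every RCC library was at or below 3 counts, so no fold is given for CDKN2A. Most of the SCC counts came from replicate 1. CDKN2B (ENSG00000147883, chr9:22002903-22009363, minus strand) had 1, 3 and 0 counts in SCC and 0 in each RCC library, which is at or below 3 counts in every library, and no fold is given. MDA-MB-231 is known to carry a homozygous deletion that takes in CDKN2A. The neighbouring genes were as low: MTAP, which encodes an enzyme of methionine salvage, had 5 counts in SCC replicate 1 and 0 elsewhere, and the antisense gene CDKN2B-AS1 had 0 in all 6 libraries.

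The stretch around CDKN2A was looked at more widely after these values had been seen. Within 5 megabases on either side of it lay 42 protein-coding genes. An unbroken run of 25, from HACD4 to IZUMO3 (chr9:20999515-24545946, 3.55 megabases), had at most 10 counts in any library, and 20 of these had 0 in all 6. Many genes of the run, such as the interferon genes, are silent in most epithelial cells, so low counts there do not tell a deletion from silence, and DNA was not measured. The genes flanking the run were read in both groups: FOCAD had 296 counts in SCC and 294 in RCC, and TUSC1 had 1295 and 948. Of 8 listed neighbours 2 were tested and 0 called in edgeR (adjusted or not), DESeq2 or limma; MLLT3 had the smallest p (log2 fold change -0.11, edgeR adjusted p = 0.573).

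**Figure D2:**
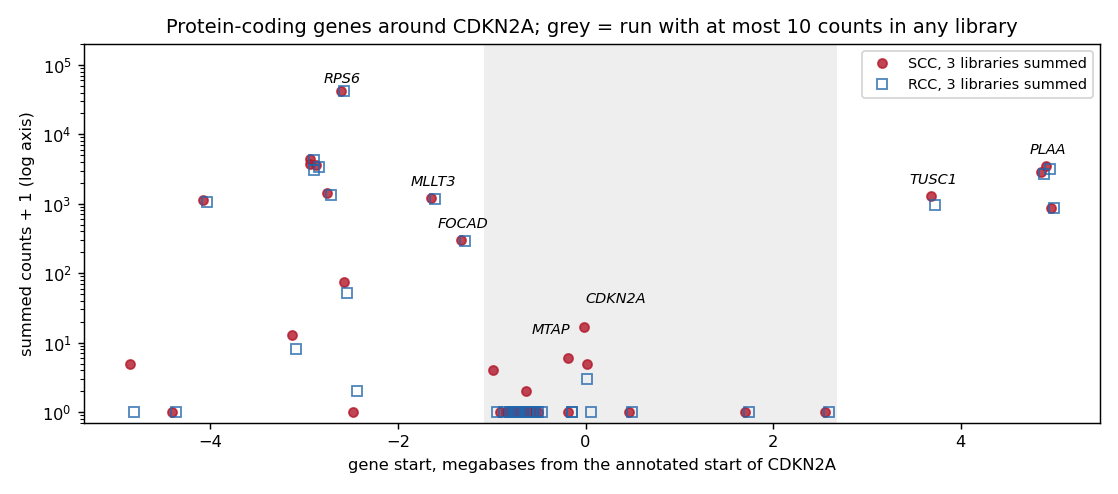
Counts plus 1, summed over the 3 libraries of each group (vertical log axis), of protein-coding genes against the distance of their starts from the start of CDKN2A in megabases. Grey marks the run of 25 genes with at most 10 counts in any library. CDKN2A is the highest point within it at 16 counts in SCC, and FOCAD and TUSC1 flank it.

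SKP2, the p27 receptor of the SCF ligase, was the gene called lower in SCC. SKP2 (ENSG00000145604) lies at chr5:36151989-36184319 on the plus strand. Its level was 53.2, 56.5 and 54.1 CPM in SCC and 80.2, 79.4 and 72.4 CPM in RCC. The SCC libraries lay within a narrow range below every RCC library. The means were 54.6 ± 1.69 CPM and 77.4 ± 4.28 CPM (SD, n = 3), a log2 fold change of -0.50 (SE 0.074, edgeR adjusted p = 0.0051). The SCC level was 0.706 times that of RCC, with a 95% interval of 0.630 to 0.790. The call held in 14 of 17 alternative settings; it was lost without RCC replicate 1 (-0.49, edgeR adjusted p = 0.064), without RCC replicate 2 (-0.49, edgeR adjusted p = 0.056), and in limma on unfiltered FPKM (adjusted p = 0.073).

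CKS1B, the cofactor that SKP2 needs to bind p27, had nearly the same mean in both groups. CKS1B (chr1:154974653-154979249, plus strand) was at 180.5, 199 and 191 CPM in SCC and 195, 192 and 183 CPM in RCC. The groups overlapped throughout, with a log2 fold change of 0.00 and a 95% interval of -0.15 to 0.15 (edgeR adjusted p = 0.995). CKS1B has processed pseudogenes with rows of their own, and CKS1BP3 had 49 to 89 counts per library, so a few reads may be split between them. CDKN3, the CDK phosphatase (chr14:54396849-54420218, plus strand), was at 70.1, 81.3 and 80.8 CPM in SCC and 90.9, 92.5 and 83.1 CPM in RCC. Every SCC library lay below every RCC library, by a narrow gap. The log2 fold change of CDKN3 was -0.20 with a 95% interval of -0.38 to -0.02 (edgeR adjusted p = 0.218), and it passed the threshold in 0 of 17 alternative settings.

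**Figure D3:**
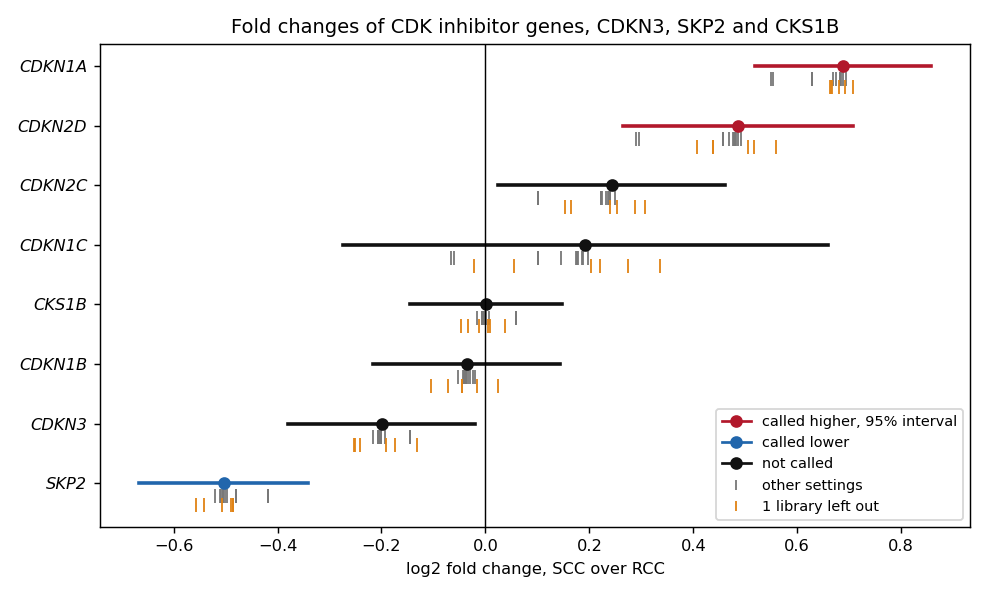
Log2 fold change of SCC over RCC (horizontal axis) for the 8 tested genes, with 95% intervals from edgeR's fit and ticks for the alternative settings (grey) and for 1 library left out (orange). CDKN1A at 0.69 and CDKN2D at 0.49 lie to the right of 0 and SKP2 at -0.50 to the left. The intervals of CDKN1B, CDKN1C and CKS1B include 0. Those of CDKN2C and CDKN3 exclude 0, but intervals are not adjusted for the number of genes tested, and neither gene was called.

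Ratios within a library do not depend on how the libraries were scaled, and they compare the response of a pair of genes directly. The log2 ratio of CDKN1A to SKP2 counts was -0.14, -0.29 and -0.16 in SCC and -1.46, -1.46 and -1.24 in RCC. All 3 SCC ratios lay above all 3 RCC ratios, by a mean of 1.19, or 2.28-fold. The ratio of CDKN1A to CDKN1B was -0.29 ± 0.07 in SCC and -1.01 ± 0.17 in RCC on the same scale (SD, n = 3), a difference of 0.72. That of SKP2 to CDKN1B was -0.09 ± 0.01 and 0.38 ± 0.07 (SD, n = 3), a difference of -0.47. For each of the 3 ratios the groups did not overlap, with a two-sided exact permutation p of 0.1, which is the smallest possible and stays 0.1 after adjustment over the 3. Every SCC library was higher in CDKN1A and lower in SKP2 than every RCC library. The non-overlap of the CDKN1A to SKP2 ratio, and its p, follow from those values and add no separate evidence. CDKN1A is richer in GC (58.1%) than SKP2 (41.3%), and with the offset for GC content the differences were 0.97, 0.57 and -0.40.

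**Figure D4:**
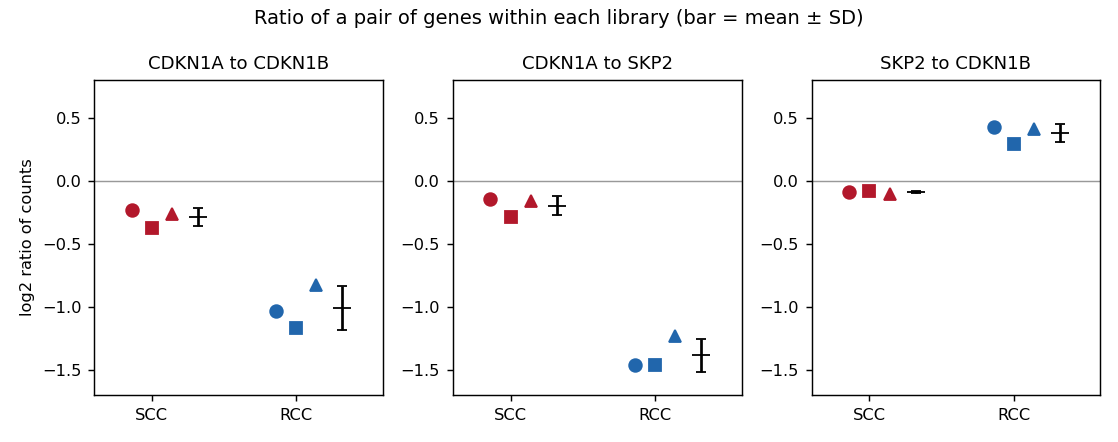
Log2 ratio of counts within each library (vertical axis) for CDKN1A to CDKN1B, CDKN1A to SKP2 and SKP2 to CDKN1B, with 1 symbol per library and a bar for the group mean ± SD. CDKN1A to SKP2 averages -0.20 in SCC and -1.39 in RCC, and no ratio overlaps between the groups.

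On the deposited FPKM scale, which divides by gene length, the 10 genes could be ordered by level. CKS1B was the highest in both groups at 80.8 FPKM in SCC and 81.1 FPKM in RCC, followed by CDKN3 at 41.9 and 48.2 FPKM. In SCC the order went on with CDKN2C (25.6 FPKM) and CDKN2D (24.6 FPKM), whose libraries overlapped, then CDKN1B (20.6 FPKM), CDKN1A (15.5 FPKM) and SKP2 (14.1 FPKM). In RCC the FPKM levels of CDKN2C (21.7), CDKN1B (21.2), SKP2 (20.1) and CDKN2D (17.7) each overlapped the next, and CDKN1A came below them at 9.67. CDKN1C was low in both groups at 1.93 and 1.71 FPKM, with CDKN2A and CDKN2B under it. The order of CDKN1A relative to SKP2 differed between the groups: the ratio of their FPKM was 1.10 ± 0.06 in SCC and 0.483 ± 0.045 in RCC (SD, n = 3). That order rests on the gene lengths used (3050 and 3837 bases). By counts CDKN1A lay below SKP2 in every library of both groups.

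Genes for the proteins that these inhibitors bind, and for the rest of the SKP2 ligase, gave 0 calls in the main edgeR fit. Of 10 tested cyclin and CDK genes, 0 were called, at a median log2 fold change of -0.02 against 0.00 over all tested genes. The cyclin E gene CCNE2 had the smallest p of them, at a log2 fold change of -0.47 (edgeR adjusted p = 0.054). By an unadjusted p below 0.05 in edgeR, reached by 3127 of all 15881 tested genes, 1 of the 10 was higher and 2 were lower. DESeq2 called 1 lower and limma 0, and CCNE2 was called in 8 of 17 alternative settings. Of the 12 genes of the SCF core and its regulators 0 were called in edgeR, DESeq2 or limma, although 0 were higher and 2 lower by unadjusted p, at a median log2 fold change of -0.10. SKP2 was thus called lower while CAND1, the exchange factor with the smallest p in that list, had a log2 fold change of -0.17 (edgeR adjusted p = 0.234). The 14 other ligases that act on CIP/KIP proteins or SKP2 gave 0 calls in the main edgeR fit and limma and 1 higher in DESeq2. By unadjusted p in edgeR 2 were higher and 0 lower. The smallest p was that of STUB1 (log2 fold change 0.39, edgeR adjusted p = 0.122). STUB1 was called in 4 of 17 alternative settings, among them edgeR without SCC replicate 1 (0.24, adjusted p = 0.042) and without SCC replicate 2 (0.49, adjusted p = 0.026), and it was 0.12 with the offset for GC content.

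Downstream of the inhibitors, 0 of 13 genes for RB pocket proteins and E2F factors were called in the main edgeR fit, DESeq2 or limma. By unadjusted p in edgeR 1 was higher and 2 were lower, against 3127 of all 15881 tested genes in either direction. E2F1 had the smallest p, with a log2 fold change of 0.32 (edgeR adjusted p = 0.173). E2F1 fell to 0.16 without SCC replicate 1 and 0.10 with the offset for GC content, and it was called in edgeR without SCC replicate 2 (0.41, adjusted p = 0.049) and with every gene of at least 1 count (adjusted p = 0.010). Among 19 tested S-phase genes, CDCA7 was called lower at 53.6 ± 2.27 CPM against 71.2 ± 3.79 CPM (SD, n = 3; log2 fold change -0.41, edgeR adjusted p = 0.019), a call lost without SCC replicate 3 or any RCC library (edgeR adjusted p 0.056 to 0.144) and in unfiltered limma (adjusted p = 0.142). By unadjusted p in edgeR, 0 of the S-phase genes were higher and 3 were lower. Of 20 genes of G2 and mitosis 0 were called by any of these tools, with 2 higher and 1 lower by unadjusted p in edgeR. The proliferation marker MKI67 had a log2 fold change of 0.12 (edgeR adjusted p = 0.401) and the mitotic cyclin gene CCNB1 one of -0.11 (edgeR adjusted p = 0.388).

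CDKN1A is often listed with other genes of the DNA damage and stress response. Over all 15881 tested genes 1.69% were called higher, and 3127 had an unadjusted p under 0.05 in edgeR. Of 23 genes of that response 4 were called higher and 0 lower (6 and 0 by unadjusted p in edgeR), with a median log2 fold change of 0.13. Among those called were GADD45A, which slows the cell cycle after damage (1.02, edgeR adjusted p = 3.0e-04), the kinase gene PLK2 (0.76, edgeR adjusted p = 4.0e-04) and the stress sensor gene SESN2 (1.18, edgeR adjusted p = 0.0023). SESN2 was not called in limma on unfiltered FPKM (adjusted p = 0.145). The ubiquitin ligase gene MDM2 was at 76.3 ± 1.43 CPM in SCC and 76.5 ± 1.10 CPM in RCC (SD, n = 3), and it was not among the called genes.

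Over all 15881 tested genes, 3127 had an unadjusted p under 0.05 in edgeR, and 27.8% did not overlap between the groups. By that unadjusted p, 8 of 29 transcription and chromatin regulators of CDK inhibitor genes were higher and 3 lower, and 14 did not overlap. After adjustment 1 was called: KLF4, known as an activator of CDKN1A, at 43.8 ± 4.15 CPM in SCC and 23.9 ± 0.78 CPM in RCC (SD, n = 3; log2 fold change 0.87, edgeR adjusted p = 4.7e-04). Among 13 tested RNA-binding regulators (2 higher and 3 lower by unadjusted p in edgeR), 1 was called, the mRNA decay factor ZFP36, which is also an immediate early gene (1.31, edgeR adjusted p = 7.5e-04). Of 12 kinases that phosphorylate CIP/KIP proteins (2 higher and 1 lower by unadjusted p in edgeR), SGK1 was higher (0.63, edgeR adjusted p = 0.0017), and so was PIM1 (0.45, edgeR adjusted p = 0.040). PIM1 was not called without SCC replicate 3 or any RCC library (edgeR adjusted p 0.084 to 0.198), nor in the 3 limma settings (adjusted p 0.097 to 0.271). SGK1 and ZFP36 lost their calls in limma on unfiltered FPKM, at adjusted p of 0.092 and 0.073. None of 5 tested neighbours of CDKN1A on chromosome 6 was called in the main edgeR fit, DESeq2 or limma, nor by unadjusted p (0 genes). The smallest p was that of SRSF3 (0.14, edgeR adjusted p = 0.295). SRSF3 was called in 3 of 17 alternative settings, at 0.25 with the offset for GC content (edgeR adjusted p = 0.0060), the same with the block added, and 0.20 without SCC replicate 1 (edgeR adjusted p = 0.0090). Each list was counted in the same fit, and the lists were written with earlier results of these data known.

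**Figure D5:**
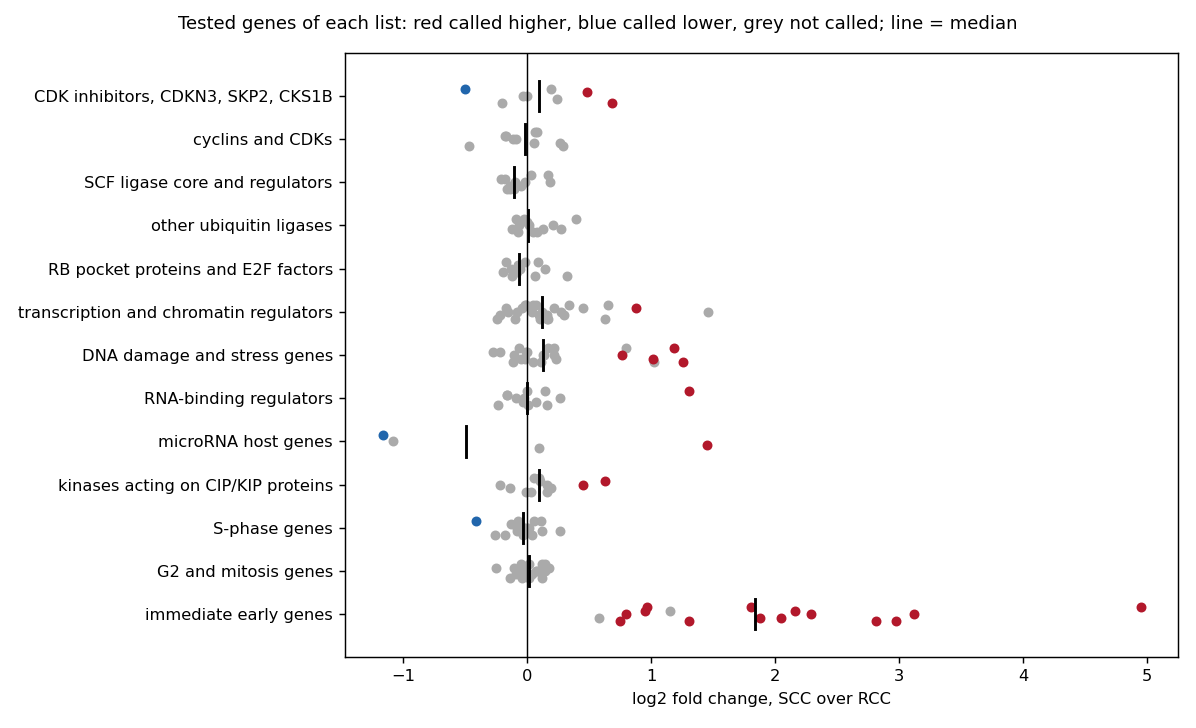
Log2 fold change of SCC over RCC (horizontal axis) for the tested genes of each list, with 1 point per gene, red for called higher, blue for called lower, and a line at the list's median. Immediate early genes reach furthest, with 14 of 16 called and a median of 1.84, and the cyclin, ligase and RB lists hold 0 called genes.

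The genes whose levels followed CDKN1A most closely over the 6 libraries were ABHD12, NFKBIA, CSRNP1, GSN and TIMP3, with Pearson r of 0.995 to 0.997 for log2 CPM among 9653 genes with a mean of at least 10 CPM. NFKBIA, the inhibitor of NF-kB, had a log2 fold change of 1.47 (edgeR adjusted p = 1.5e-06), and the immediate early gene CSRNP1 one of 2.29 (edgeR adjusted p = 4.0e-07). The actin regulator gene GSN was also called (0.47, edgeR adjusted p = 0.0064), whereas ABHD12 and TIMP3 were not. For SKP2 the closest were AP1G1, HEATR3, DDX55, ZNF680 and ADGRA3, with r of 0.991 to 0.995. Of these the zinc finger gene ZNF680 was called lower (-0.92, edgeR adjusted p = 0.0034). The 6 libraries fall into the same 2 groups for every gene, so these correlations hold the group difference and are given as a description.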

How the data were processed

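RNA-seq was deposited for 6 libraries in 2 groups, with gene length beside the values. The authors deposited whole-number counts per gene and FPKM per gene, and each FPKM equalled the count divided by gene length and by 1 constant per library. Tools named per the submitters' processing notes were HISAT2 2.0.5 and featureCounts 1.5.0-p3; the build, annotation and use of strand are not given in the sources used here, so genes that overlap another are uncertain. All 58735 rows had GENCODE 29 gene IDs and positions on GRCh38. Sequences came from RefSeq tables (GRCh38.p14) and GENCODE 29 transcripts.

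The test on the deposited counts was run in R 4.3.3 with edgeR 4.0.16, using filterByExpr at a minimum count of 10, TMM scaling, the quasi-likelihood F test on group alone over all 6 libraries, and Benjamini-Hochberg adjustment over all 15881 tested genes, with calls at an adjusted p under 0.05. A standard error is the log2 fold change over the root of F, and CPM uses TMM-scaled totals. Ratios and the mitochondrial share were compared by two-sided exact permutation. The scripts were tested on simulated counts with no GC shift and no library that stood apart, unlike SCC replicate 1 here. Counts limit precision, and no fold is given for CDKN2A or CDKN2B.

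Alternatives were DESeq2 1.42.0, RLE and upper-quartile scaling, filters on counts, limma-trend (3.58.1) on FPKM with pseudocounts of 1 and 0.1 on the log2 scale and without the filter of FPKM of at least 1 in 3 libraries, an offset for GC content (lowess span 0.3, GC of the longest transcript), a block for the replicate number, and leaving out single libraries. No pair of libraries within a group agreed within sampling noise. Chi-square per degree of freedom was 28.0 and 21.0 for SCC replicate 1 against SCC replicates 2 and 3. It was 3.31 to 4.30 for the other pairs within a group. Members and gene lists were chosen with earlier results of these data known. Named genes were the 10 members, every called gene of a list (at most 6) or else that with the smallest p, MKI67, CCNB1, MDM2, MTAP, CDKN2B-AS1 and MIR222HG, and the 5 genes most like CDKN1A and SKP2. Others (FOCAD, TUSC1, HACD4, IZUMO3, DINOL, CKS1BP3, MIR17HG, MCM7 and the markers VIM, CD44 and ESR1) were named for their position, sequence or role. Some genes that the rule names are not reported here.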

Additional observations from a re-analysis of the deposited data

How the results depend on the processing

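CDKN1A kept its call in all 17 alternatives tried, and CDKN1B, CDKN1C, CDKN2C, CDKN3 and CKS1B passed the threshold in 0. Counts, ratios and members that moved, and folds that changed sign, follow; their cause was not tested. Genes called higher and lower (268 and 60) became 397 and 135 in DESeq2, 995 and 315 with every gene of at least 1 count, 130 and 36 in limma on log2(FPKM + 1), 117 and 34 on log2(FPKM + 0.1), 48 and 1 without the FPKM filter, and 523 and 245 with the GC offset. Leaving out a library gave 99 to 642 higher and 8 to 343 lower, the extremes coming without RCC replicate 1 and SCC replicate 1.

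Of the members, 1 was higher in place of 2 in the 3 limma settings and with the GC offset, where CDKN2D was 0.46, 0.48, 0.46 and 0.29. Leaving out a library gave 1 to 2 higher and 0 to 1 lower, with CDKN2D at 0.41 to 0.56 and SKP2 at -0.56 to -0.49. Unfiltered limma gave 0 lower, with SKP2 at -0.48. With the GC offset the ratios of CDKN1A to CDKN1B, CDKN1A to SKP2 and SKP2 to CDKN1B differed by 0.57, 0.97 and -0.40.

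Signs changed in genes whose fold was near 0. CKS1B was -0.0055 in DESeq2, -0.0044 with RLE, -0.017 with upper-quartile scaling, -0.0017 with at least 10 counts in every library, -0.0057, -0.0058 and -0.0057 in limma, and -0.048 to 0.038 with a library left out. CDKN1B ranged over -0.10 to 0.023 with a library left out. CDKN1C was -0.066 with the GC offset and -0.023 to 0.34 with a library left out. MDM2 was 0.0021 with every gene of at least 1 count, 0.075 with the GC offset and -0.028 to 0.012 with a library left out, and MLLT3 was 0.019 with the GC offset.

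Deviations of same-numbered libraries from their group means hardly went together, with correlations of -0.01, 0.02 and -0.07. These used values without the offset for GC content, by which SCC replicate 1 stood apart. Whether the libraries were paired cannot be told from them. Blocking on the number gave 350 higher and 106 lower genes, and the calls of the members were unchanged. With the block and the GC offset 621 and 432 were called, with CDKN1C at -0.061, MDM2 at 0.074 and MLLT3 at 0.022. Counts of called genes per list were equal or within 1.5 times in 531 of 612 cases. Lists with 0 calls in both fits are among the 531, and most lists had 0 calls in a given direction in the main fit. Calls gained or lost by other named genes stand beside their values. CDKN2A and CDKN2B did not pass the count filter.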
